A study of Mus musculus with 6 samples.

Results

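The 43 genes described here make up the thioredoxin and glutathione systems, the 2 main thiol-based defences of a cell against oxidants, with the superoxide dismutases, catalase and the NRF2 response that surround them. They were listed by name and function, with earlier results of these data known, and matched to the array by gene symbol. A probe set with 1 gene symbol was found for 40 of the 43, and the brightest probe set, by mean signal over the 6 arrays, stands for each gene. All 40 were among the 12971 genes tested. Of the other 3 genes, the probe sets of Prdx1 carry several gene symbols, and Prdx5 and Prdx6 were not analysed here.

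Whole testes of mice at postnatal day 21 were profiled, 3 labelled Nxf2 KO and 3 labelled WT, with 1 Affymetrix array per sample. Nxf2 is an X-linked, germ-cell relative of the mRNA export receptor gene Nxf1. The sources used here give neither the mutant allele, nor the strain, nor the number of animals behind each sample. The p-values therefore measure only the spread between these samples, which may be technical. At this age the first wave of germ cells has reached meiosis and the first spermatids.

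Thioredoxins are small proteins that reduce disulfide bonds in other proteins and are recharged by thioredoxin reductases with NADPH. Peroxiredoxins and glutathione peroxidases use thioredoxin or glutathione to remove peroxides, and glutathione transferases attach glutathione to electrophiles. The testis has its own thioredoxins, made in spermatids and built into the sperm tail or passing through the Golgi and acrosome, while many glutathione transferases are abundant in Leydig and Sertoli cells.

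Nxf2 itself had signals of 116, 106 and 131 in KO replicates 1 to 3 and of 374, 340.4 and 386 in WT replicates 1 to 3. It was 3.0-fold lower in KO (log2 fold change -1.59 ± 0.0999 SE, limma adjusted p = 0.000488), and no KO array reached a WT array. The testis label was checked on defining markers: the summed signal of 10 pachytene spermatocyte genes was 7843 to 10041 and that of 12 Sertoli cell genes 6034 to 7341 over the 6 arrays. The array medians lay between 37.1 and 40.9, and Spearman correlations between arrays of 1 genotype were 0.980 to 0.992. In bulk tissue, fewer cells of a type and less RNA per cell cannot be told apart.

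Of the 40 members, 2 fell in KO testes, the spermatid thioredoxin Txndc8 and the testis reductase Txnrd3, and 4 rose, the mitochondrial peroxiredoxin Prdx3, catalase (Cat), the glutathione transferase Gstm6 and heme oxygenase 1 (Hmox1). The remaining 34 did not pass the test (limma, Benjamini-Hochberg adjusted p under 0.05 over 27022 probe sets). Over all genes tested, 7.37% fell and 2.98% rose, so the 2 members that fell, 5% of the 40, lie near the background share. The 4 that rose are 10% of the members. With each array centred on its median the same test gave 1 member lower and 1 higher, against 1382 probe sets lower and 247 higher in the whole table, where the uncentred signals gave 1414 and 610.

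Most members had slightly higher means in KO. The log2 fold change was above 0 in 29 of 40 members (72.5%), also after quantile normalization and after median centring, against 56.9% of all genes, and its median was 0.13 against 0.036 over all genes. In 16 members (40%) all 3 KO arrays lay above all 3 WT arrays, a separation found in 21.5% of all genes. In 4 members (10%) all KO arrays lay below all WT arrays, against 18.3% of all genes. Centring each array on its median brought the first count to 9 of 40 and the background to 14.0%. With the WT mean of each gene set to 0 on the log2 scale, the median over the 40 members was 0.11, 0.089 and 0.21 in KO replicates 1 to 3 and 0.0048, -0.048 and 0.055 in WT replicates 1 to 3.

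**Figure D1:**
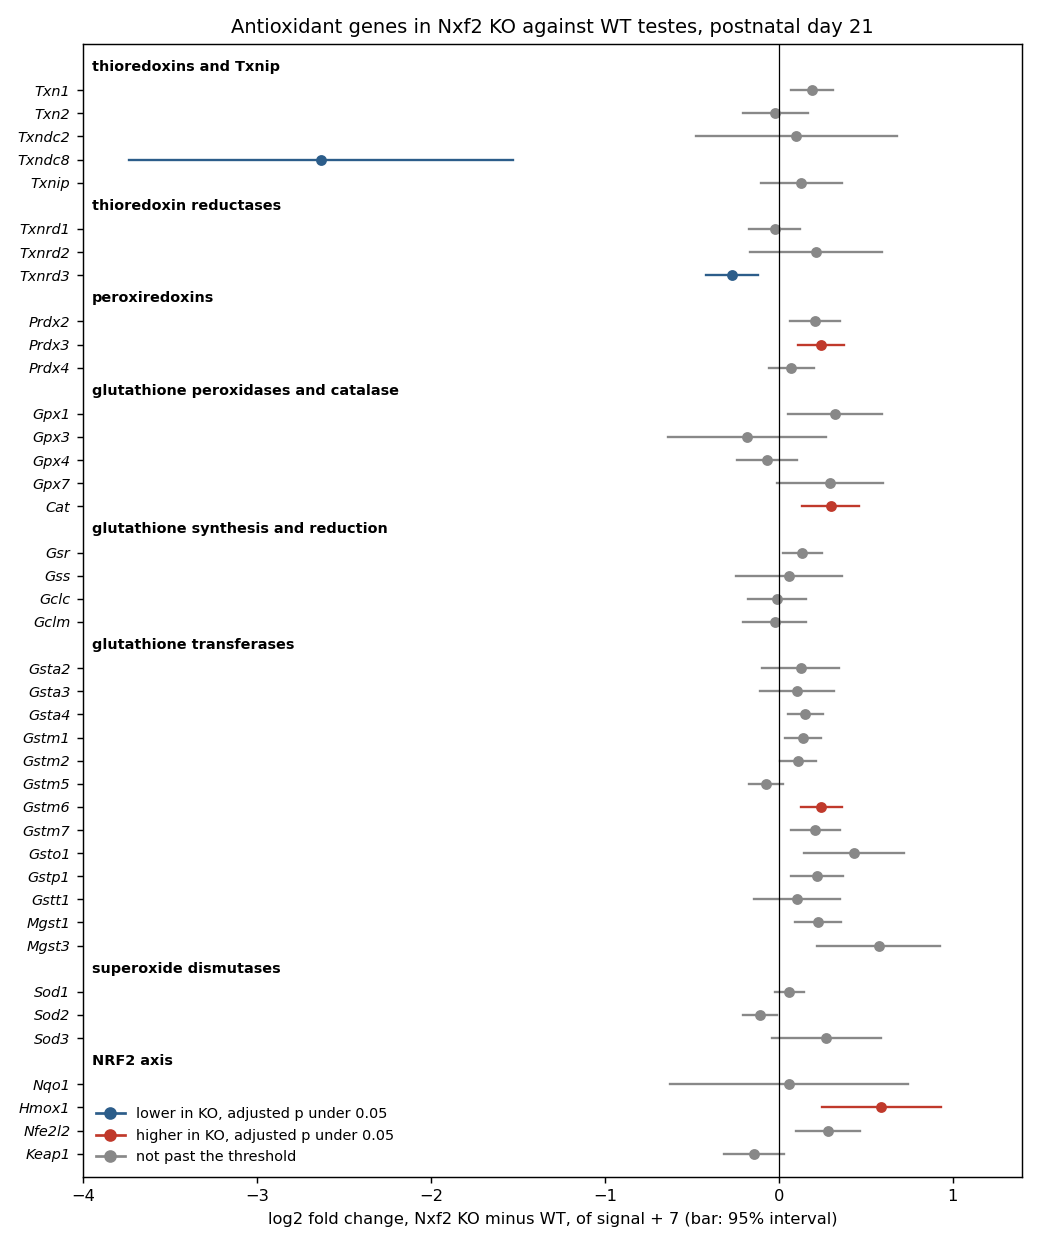
Log2 fold change, Nxf2 KO minus WT, of log2(signal + 7) for the 40 measured members, 1 row per gene grouped by role, with the 95% interval as a bar and the 6 members past the threshold in colour. Txndc8, at -2.63, lies far from the other 39 members, which range from -0.27 to 0.59.

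Txndc8 (also called Sptrx-3), a thioredoxin of spermatids associated with acrosome formation, was the member with the largest change. Its signals were 11.5, 5.19 and 30.9 in KO replicates 1 to 3 and 145, 50.6 and 225 in WT replicates 1 to 3. Every KO array lay below every WT array, with WT replicate 2 nearest to the KO arrays. The fall was 6.20-fold on the scale of log2(signal + 7) (log2 fold change -2.63 ± 0.495 SE, 95% interval -3.73 to -1.53, adjusted p = 0.0159). The KO mean of 15.8 ± 13.4 (SD, n = 3) is below the 20.5 that a probe set's overall mean had to reach to be tested, so the gene was tested through its WT signal of 140.1 ± 87.1 and the fold depends on the pseudocount: on the log2 scale it was -3.14 with a pseudocount of 1 and -1.60 with 39. The call was lost without WT replicate 1 (log2 fold change -2.50, adjusted p = 0.0760) and with a variance prior that ignores intensity (adjusted p = 0.0625).

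The second spermatid thioredoxin of the list, Txndc2 (Sptrx-1), which sits in the fibrous sheath of the sperm tail, stayed dim in both genotypes. It gave 23.1, 20.6 and 35.5 in KO and 21.0, 15.5 and 38.5 in WT, so the groups overlapped on signals near the limit of 20.5. Its log2 fold change was 0.10 with a 95% interval of -0.48 to 0.68 (adjusted p = 0.826), which does not show that it was unchanged. Nme8 (Sptrx-2), the third testis thioredoxin, is not among the 43 genes but was listed with the other thioredoxin-fold genes. It gave 389, 308 and 352 in KO and 594, 514 and 536 in WT, and fell 1.56-fold (log2 fold change -0.64 ± 0.0931 SE, adjusted p = 0.00666).

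Of the thioredoxins found in most cells, none passed. Txn1, the cytosolic thioredoxin, gave 1217, 1263 and 1374 in KO and 1112, 1082 and 1178 in WT. The groups did not overlap, but the log2 fold change of 0.19 did not pass (95% interval 0.07 to 0.31, adjusted p = 0.0631). For mitochondrial Txn2 the log2 fold change was -0.020 (-0.21 to 0.17, adjusted p = 0.895). Txnip, the arrestin-like protein that binds and blocks thioredoxin, had one of 0.13 (-0.11 to 0.36, adjusted p = 0.443), with WT replicate 3 lowest at 755 against 957 and 1066 in the other WT arrays. The difference between these changes and that of Txndc8 was not tested.

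Among the reductases, Txnrd3, the testis enzyme that joins a glutaredoxin domain to a thioredoxin reductase, was the only one of 3 that passed. Its signals were 860.4, 782 and 749 in KO and 956, 899.7 and 1032 in WT, with all KO arrays below all WT arrays. It fell 1.21-fold (log2 fold change -0.27 ± 0.0675 SE, adjusted p = 0.0398). Its 2 other probe sets both had log2 fold changes of -0.28 and did not pass (adjusted p = 0.0510 and 0.0951). The call was lost after median centring (-0.31, adjusted p = 0.0684) and on leaving out any 1 of KO replicates 2 and 3 and WT replicates 1 and 3 (adjusted p = 0.0902 to 0.135). Cytosolic Txnrd1 (-0.025, adjusted p = 0.828) and mitochondrial Txnrd2 (0.21, adjusted p = 0.431) had overlapping groups.

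Most listed spermatid markers also had lower means in KO. Of 13 listed elongating spermatid genes 12 were tested, and 8 of these fell and none rose, with a median log2 fold change of -1.35, and the summed signal was 771 to 868 in KO and 1335 to 2351 in WT. In the list of 12 round spermatid genes 11 fell, with a median of -0.91. The summed signal of that list was 2358 to 2524 in KO and 3387 to 3995 in WT. The shares over all genes tested were 7.37% lower and 2.98% higher. For the elongating list WT replicates 3, 1 and 2 had sums of 2351, 1952 and 1335, the order in which they stand for Txndc8. The sums in KO replicates 1 to 3 were 771, 842 and 868, whereas Txndc8 was lower in KO replicate 2 than in KO replicate 1. Txnrd3 stood in the order of the sums in WT replicates 1 to 3 (956, 899.7 and 1032). In KO replicates 1 to 3 it ran the other way (860.4, 782 and 749). Nme8 was highest in WT replicate 1 (594, 514 and 536 in WT replicates 1 to 3). Like Txndc2, the late nuclear protein genes Tnp2 (29.2 in KO and 28.5 in WT) and Prm1 (28.9 and 28.2) had signals near the limit in both genotypes. Tnp1 (17.7 and 29.0) had a lower mean in KO and did not pass (log2 fold change -0.47, adjusted p = 0.262). Prm2 (8.46 and 11.5) was too dim to be tested. Of the genes that fell, 3 of the 8 elongating and 2 of the 11 round spermatid genes had KO means under 20.5. They were tested through their WT signal and so had to differ, and the counts and medians of these lists are a description. No marker gene was listed at 0 on any array, and the part of spermatid number in the values of Txndc8, Txnrd3 and Nme8 was not tested.

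**Figure D2:**
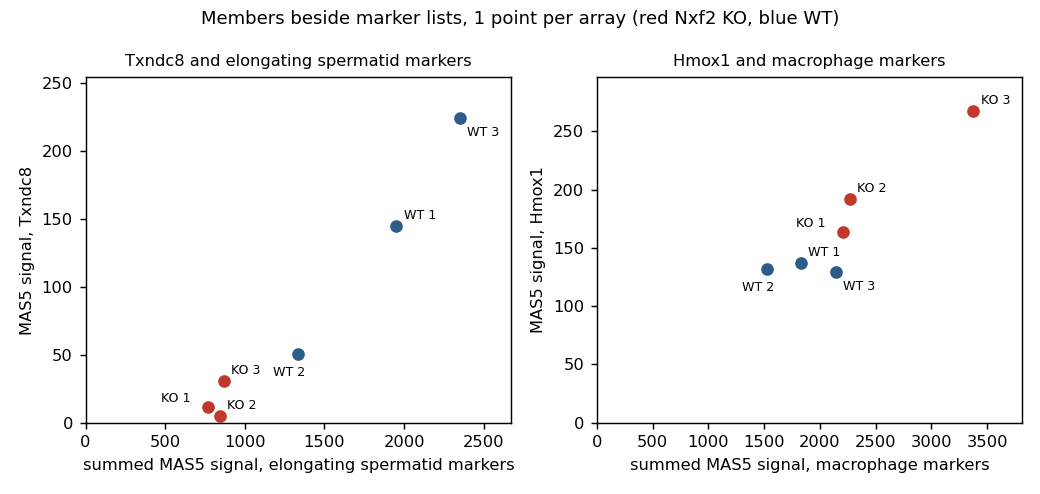
Signal of Txndc8 against the summed signal of 13 elongating spermatid markers, and of Hmox1 against the summed signal of 10 macrophage markers, with 1 point per array (KO red, WT blue). WT replicates stand in the same order for Txndc8 and the spermatid sum, while KO replicates 1 and 2 stand in the opposite order. KO replicate 3 has both the highest Hmox1 signal, 268, and the highest macrophage sum, 3378. Among the WT arrays, replicate 3 has the highest macrophage sum, 2142, and the lowest Hmox1 signal, 129.5.

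The sequence before the gene start is shown for the 2 spermatid thioredoxins of the list and for Txnrd3 and Cat, a member that fell and one that rose, to set them side by side. RefSeq's GRCm38.p6 promoter table held 48 windows for 37 of the 43 genes, here taken as the 250 bases before the start. Capitals mark TGATGTCA, which differs by 1 base from the cAMP response element TGACGTCA, the site of the spermatid factor CREM, in the Txndc windows, and CCAAT in the Cat window, on either strand. The Txndc8 window is chr4:58009127-58009376 and that of Txndc2, the upstream one of 2, chr17:65642205-65642454, both on the minus strand. The windows of Txnrd3 and Cat are chr6:89643738-89643987 on the plus strand and chr2:103485154-103485403 on the minus strand.
Txndc8: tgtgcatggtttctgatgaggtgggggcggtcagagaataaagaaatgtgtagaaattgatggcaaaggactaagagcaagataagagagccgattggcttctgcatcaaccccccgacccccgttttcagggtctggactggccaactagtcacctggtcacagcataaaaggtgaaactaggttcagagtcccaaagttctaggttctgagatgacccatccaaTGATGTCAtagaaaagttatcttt
Txndc2: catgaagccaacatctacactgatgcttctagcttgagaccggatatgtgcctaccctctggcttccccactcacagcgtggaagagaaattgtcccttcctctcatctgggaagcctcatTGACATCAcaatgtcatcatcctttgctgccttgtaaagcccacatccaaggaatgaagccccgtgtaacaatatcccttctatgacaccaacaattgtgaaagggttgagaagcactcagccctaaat
Txnrd3: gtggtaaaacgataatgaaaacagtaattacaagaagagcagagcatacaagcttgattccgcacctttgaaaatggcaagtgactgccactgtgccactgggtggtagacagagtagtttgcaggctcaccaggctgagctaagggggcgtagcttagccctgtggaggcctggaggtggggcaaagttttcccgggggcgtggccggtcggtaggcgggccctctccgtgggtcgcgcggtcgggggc
Cat: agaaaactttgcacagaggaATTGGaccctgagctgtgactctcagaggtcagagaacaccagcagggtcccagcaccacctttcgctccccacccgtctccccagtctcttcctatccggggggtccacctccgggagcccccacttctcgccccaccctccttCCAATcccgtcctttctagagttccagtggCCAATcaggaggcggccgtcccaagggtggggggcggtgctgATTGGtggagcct

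TGATGTCA begins 24 bases before the start of Txndc8, where it shares 1 base with a CCAAT, and its reverse complement begins 129 bases before that of Txndc2. These letters are in 2.93% of all 32851 RefSeq windows and, beside the Txndc pair, in 1 window of Txnrd1. The full TGACGTCA is in none of the 48 member windows and in 1.55% of all windows. The median GC content was 57.6% in the member windows and 52.4% in all windows, and some genes have several windows. CCAAT is in 24 of the 48 member windows (50.0%), on 18 genes and 4 times in that of Cat, against 33.8% of all windows. The core of the antioxidant response element bound by NRF2, TGACNNNGC, is in 10 member windows (20.8%) against 10.2% of all windows. These are on 10 genes, Nfe2l2, Gclm, Txnrd1, Sod1, Mgst1, Gsta3, Gstm5, Gstm7, Prdx1 and Txndc2. The Txndc2 window with the core is the downstream one, not printed, which lacks TGATGTCA. None of the windows of Txndc8, Txnrd3, Prdx3, Cat and Gstm6 holds that core, and for Hmox1, the sixth called member, no window was at hand. All motifs were searched on both strands, TGATGTCA was chosen after the sequences were seen, and a match is a description of letters, not of a bound site.

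Of the peroxidases, Prdx3 and Cat rose and the other 6 measured members did not pass. Prdx3, which clears hydrogen peroxide in mitochondria, gave 766, 712 and 801 in KO and 662, 628 and 629.7 in WT. The groups did not overlap, and Prdx3 rose 1.18-fold (log2 fold change 0.24 ± 0.0593 SE, adjusted p = 0.0370). Cat, the peroxisomal catalase, gave 487, 534 and 522 in KO and 407, 393 and 452 in WT. It rose 1.23-fold with no overlap (0.30 ± 0.0732 SE, adjusted p = 0.0380), and its second probe set, at 0.36 on the log2 scale, did not pass (adjusted p = 0.0714). Both calls were lost after median centring (adjusted p = 0.134 for Prdx3 and 0.0987 for Cat). Prdx3 lost its call without KO replicates 1 or 3 or any 1 WT array (adjusted p = 0.0779 to 0.110), and Cat without KO replicates 2 or 3 or WT replicates 1 or 2 (adjusted p = 0.0868 to 0.149).

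The cytosolic peroxiredoxin Prdx2 gave 1280, 1166 and 1368 in KO and 1135, 1029 and 1133 in WT. All KO arrays lay above all WT arrays, and its log2 fold change of 0.21 missed the threshold (adjusted p = 0.0745), while a dimmer probe set of the gene, chosen here after its value was seen, passed at 0.40 (adjusted p = 0.0401). Prdx4, the X-linked peroxiredoxin of the endoplasmic reticulum, had a log2 fold change of 0.072 (-0.057 to 0.20, adjusted p = 0.435), and its 2 other tested probe sets had 0.080 and 0.038.

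Glutathione peroxidases did not pass in either direction. Cytosolic Gpx1 had a log2 fold change of 0.32 (95% interval 0.052 to 0.59, adjusted p = 0.121), the secreted Gpx3 one of -0.18 (-0.64 to 0.27, adjusted p = 0.584) and Gpx7, of the endoplasmic reticulum, one of 0.29 (-0.012 to 0.60, adjusted p = 0.191). Gpx4, the selenoenzyme that protects membrane lipids and becomes a structural protein of the sperm midpiece, gave 973, 957 and 1004 in KO and 890, 1113 and 1086 in WT. These groups overlapped (-0.067, adjusted p = 0.599). Its dimmer probe set separated them, at 478, 461 and 449.9 in KO and 529, 545 and 524 in WT, with a log2 fold change of -0.20 that did not pass (adjusted p = 0.0667).

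**Figure D3:**
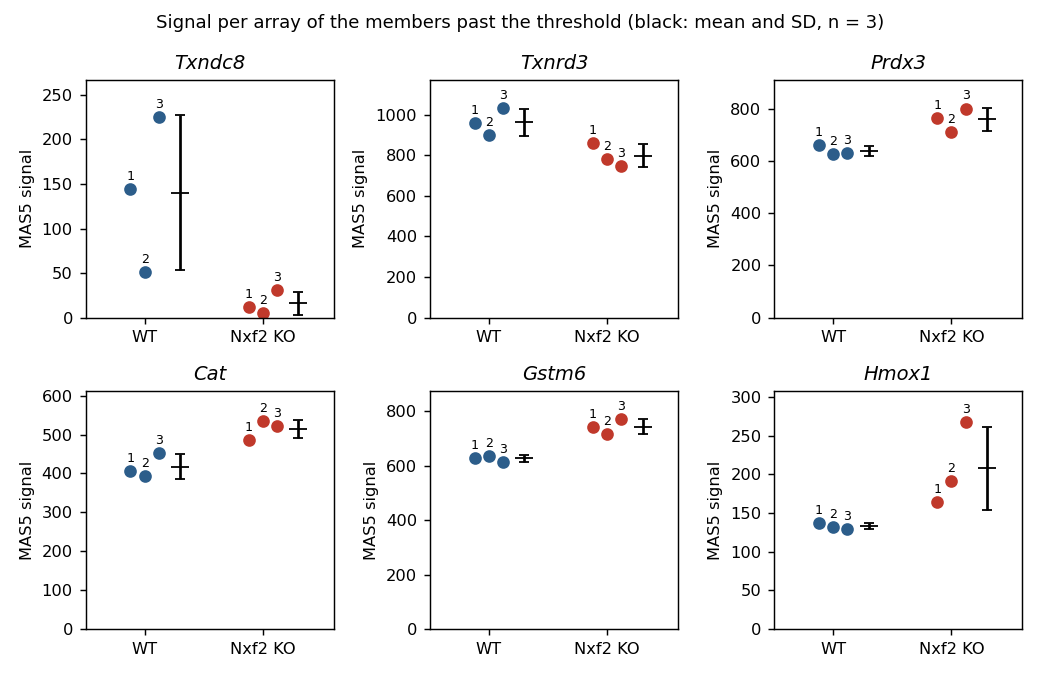
MAS5 signal on each array for the 6 members past the threshold, with replicate numbers above the points and the group mean and SD (n = 3) in black. No KO point overlaps the WT points in any panel, and the WT signals of Txndc8 spread from 50.6 to 225.

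The glutathione transferases were the largest role group, and 12 of 13 had higher means in KO, against 56.9% of all genes. The count of 12 held after quantile normalization and median centring, and array weights gave 10 of 13. The median log2 fold change was 0.15. Only Gstm6 passed. In 9 of the 13 all KO arrays lay above all WT arrays, against 21.5% of all genes, and after median centring in 4 of the 13, against 14.0% of all genes. The group's per-array median relative to WT was 0.14, 0.14 and 0.22 in KO replicates 1 to 3 and between -0.0016 and 0.0061 in the WT arrays. KO replicate 3 was the highest of the KO arrays.

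Gstm6, a mu-class transferase, gave 741, 717 and 773 in KO and 629.6, 637 and 614 in WT. It rose 1.18-fold with no overlap (log2 fold change 0.24 ± 0.0534 SE, adjusted p = 0.0264). The call was lost after median centring (adjusted p = 0.118) and without KO replicates 1 or 3 or any 1 WT array (adjusted p = 0.0518 to 0.115). The other mu-class genes are its neighbours on chromosome 3 and close in sequence, so that probes may be shared between them. The log2 fold change of Gstm7 was 0.21 (adjusted p = 0.0692), Gstm1 one of 0.14 (adjusted p = 0.0898) and Gstm2 one of 0.11 (adjusted p = 0.148), each with all KO arrays above all WT arrays. Gstm5, the mu-class transferase known for its abundance in testis and brain, was the 1 transferase with a lower mean: it gave 1565, 1514 and 1444 in KO and 1572, 1648 and 1540 in WT, with overlap (-0.073, 95% interval -0.17 to 0.025, adjusted p = 0.298).

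Both microsomal transferases came near the threshold. Mgst1, of the outer mitochondrial membrane and the endoplasmic reticulum, gave 967, 953 and 1082 in KO and 884, 864 and 814 in WT, a log2 fold change of 0.23 with an adjusted p of 0.05001, just above the limit. Mgst3 gave 125, 126 and 195 in KO and 97.2, 95.9 and 93.3 in WT. Its log2 fold change of 0.57 (0.22 to 0.93, adjusted p = 0.0572) was the largest of the transferases, with KO replicate 3 apart from the other KO arrays. Gsto1, the omega-class enzyme, had 0.43 (adjusted p = 0.0677), Gstp1, the pi-class enzyme, 0.22 (adjusted p = 0.0738) and Gsta4, which conjugates the lipid peroxidation product hydroxynonenal, 0.15 (adjusted p = 0.0677). The alpha-class genes Gsta2 (0.13) and Gsta3 (0.11) and the theta-class Gstt1 (0.10) had overlapping groups and adjusted p values of 0.430 to 0.571. A dimmer probe set of Gsta3 had a log2 fold change of -0.087.

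**Figure D4:**
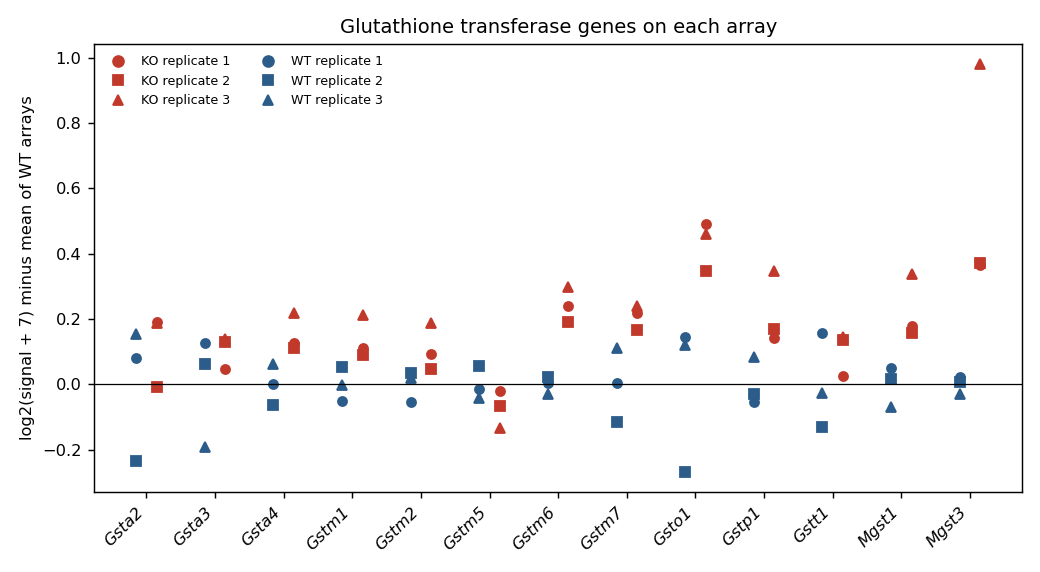
Log2(signal + 7) of the 13 glutathione transferase genes on each array, with the WT mean of each gene set to 0 (KO red, WT blue, symbols by replicate number). KO points lie above all WT points in 9 of 13 genes (21.5% of all genes), and in 4 of 13 after median centring (14.0% of all genes), and Gstm5 is the 1 gene whose KO mean is below its WT mean.

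Several lists of somatic cell markers had higher sums in KO. The summed signal of the 12 Sertoli cell markers was 6881 to 7341 in KO and 6034 to 6304 in WT (4 of 11 tested rose, median 0.24), that of 6 measured Leydig cell markers 2685 to 3942 and 2224 to 2563 (2 rose, median 0.45), and that of 10 macrophage markers 2210 to 3378 and 1530 to 2142 (none passed, median 0.48). Sums for the endothelium (244 to 334 in KO and 199.9 to 215 in WT, 2 of 6 genes rose) and fat cells (856 to 1125 and 433 to 735, 2 of 5 rose) were also higher in KO, and those for peritubular myoid cells (2098 to 2457 and 2031 to 2194, 0 of 6) overlapped. Of 10 pachytene spermatocyte genes 4 fell (7843 to 9128 in KO and 9640 to 10041 in WT), 4 of 10 spermatogonial genes rose (3739 to 3860 and 3114 to 3166), all 3 tested epididymal genes fell (559.8 to 707 and 810.3 to 843) and neither of the 2 tested red blood cell genes passed (939 to 962 and 930.4 to 1013). KO replicate 3 had the highest Sertoli, Leydig, macrophage, endothelial, peritubular myoid and spermatogonial sums of the 6 arrays, and the lowest pachytene sum. The 10 macrophage markers had log2 fold changes from -0.79 to 0.64, 1 of them below 0. Beside the counts of these lists, the shares over all genes tested were 7.37% lower and 2.98% higher. The part of these cell types in the values of the transferases, peroxidases and Hmox1 was not tested.

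None of the 4 genes of glutathione synthesis and reduction passed. The lowest p was that of Gsr, glutathione reductase, which gave 942, 884 and 907 in KO and 841, 852 and 797 in WT. Its groups did not overlap and its log2 fold change was 0.13 (95% interval 0.021 to 0.25, adjusted p = 0.123). Gclc and Gclm, the catalytic and modifier subunits of the rate-limiting ligase, had log2 fold changes of -0.011 (-0.18 to 0.15) and -0.024 (-0.20 to 0.16), and Gss, glutathione synthetase, one of 0.059 (-0.24 to 0.36), with adjusted p values of 0.804 to 0.938.

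The superoxide dismutases, which turn superoxide into hydrogen peroxide, did not pass either. Mitochondrial Sod2 gave 929, 898 and 905 in KO and 969, 972 and 1005 in WT. No KO array reached a WT array, and the log2 fold change was -0.11 (adjusted p = 0.148), and of its 2 other tested probe sets 1 had -0.17 (adjusted p = 0.0837) and the other 0.053. Cytosolic Sod1 had 0.061 (-0.022 to 0.14, adjusted p = 0.305) and the extracellular Sod3 0.27 (-0.041 to 0.59, adjusted p = 0.231).

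In the NRF2 axis Hmox1, which degrades heme and is abundant in macrophages that recycle it, was the member that passed. It gave 163, 192 and 268 in KO and 137, 132 and 129.5 in WT, with KO replicate 3 highest and no overlap. Hmox1 rose 1.51-fold (log2 fold change 0.59 ± 0.154 SE, adjusted p = 0.0467), from 132.8 ± 3.74 to 207.6 ± 53.9 (SD, n = 3 each). Among the WT arrays, replicate 3 had the highest macrophage sum and the lowest Hmox1 signal. Without KO replicate 3, which had the highest macrophage sum of all arrays, the log2 fold change of Hmox1 was 0.40 (adjusted p = 0.0805). The call was also lost without KO replicate 2 or any 1 WT array (adjusted p = 0.0762 to 0.133) and with a pseudocount of 39 (adjusted p = 0.0510).

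Nfe2l2, which encodes the transcription factor NRF2, gave 465, 425 and 510.1 in KO and 394, 355 and 398 in WT. These did not overlap, and the log2 fold change of 0.28 did not pass (adjusted p = 0.0664). Keap1, whose product targets NRF2 for degradation, gave 284, 310.1 and 321 in KO and 329.8, 327 and 355 in WT, with all KO arrays below all WT arrays (-0.14, adjusted p = 0.251). The NRF2 target Nqo1, a quinone reductase, was spread over 38.6, 42.3 and 90.2 in KO and 45.7, 36.2 and 77.9 in WT, a log2 fold change of 0.058 with a wide interval of -0.63 to 0.74 (adjusted p = 0.919).

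Set side by side, the 3 spermatid thioredoxin-system genes (Txndc2, Txndc8 and Txnrd3) had a median log2 fold change of -0.27, with 2 of 3 lower. The 8 measured peroxidases had one of 0.23, with 2 of 8 higher, and the 13 glutathione transferases one of 0.15, with 1 of 13 higher. Over all genes the median was 0.036, and 7.37% were lower and 2.98% higher. The median of -0.27 is the value of Txnrd3. Txndc8, 1 of the 2 lower genes, had a KO mean under 20.5 and was tested through its WT signal. The differences between these groups of genes were not tested.

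Other genes of the same pathways, 93 in 3 lists, gave 76 tested genes, of which 6 fell (7.89%) and 2 rose (2.63%). These shares are close to those over all genes, 7.37% and 2.98%, so the calls are given for the named genes and not as a result about the pathways. Among 20 tested thioredoxin-fold genes, 3 fell and none rose: beside Nme8, Txnl4b, related to a spliceosomal protein, fell from 304.1 ± 23.4 to 212.9 ± 9.35 (SD, n = 3 each, log2 fold change -0.50, adjusted p = 0.0114) and Nxn, nucleoredoxin, by 0.32 on the log2 scale (adjusted p = 0.0258). Among 16 tested glutathione genes, 3 fell and none rose: Gsto2, the second omega-class transferase, fell by 0.43 (adjusted p = 0.0157), Lancl1, a glutathione-binding protein, by 0.20 (adjusted p = 0.0354) and Hagh, which regenerates glutathione in methylglyoxal removal, by 0.20 (adjusted p = 0.0395). Gsto2 and its paralogue Gsto1 thus had log2 fold changes of opposite sign.

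In the third list, of NRF2 targets, regulators and other redox genes, 30 of 40 tested genes had higher means in KO, none fell and 2 rose. Of all genes tested, 56.9% had higher means in KO. Taldo1, a pentose phosphate enzyme, gave 493, 476 and 503 in KO and 391.9, 374 and 416 in WT and rose 1.24-fold (log2 fold change 0.31, adjusted p = 0.0238). Msrb1, a methionine sulfoxide reductase, gave 186, 206 and 266 in KO and 139.6, 128 and 170.1 in WT and rose 1.47-fold (0.56, adjusted p = 0.0461), with KO replicate 3 highest.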

How the data were processed

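Each value in the deposited table is a MAS5 signal (linear intensity) of 1 probe set on 1 array, per the submitters' processing notes, which give no version. Trimmed of 2% at each end, the deposited values average 150.0 on every array, so a shift shared by most transcripts is scaled out. The members, lists and tests were chosen with earlier results of these data known.

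Gene symbols came from GEO's platform annotation, updated by Entrez identifier against RefSeq's GRCm38.p6 table (34741 of 34945 probe sets with 1 symbol), and 64 control probe sets were left out. Signals became log2(signal + 7), 7 being the 25th percentile of all values, which understates folds of dim genes. Testing was limited to the 27022 probe sets whose mean signal was at or above the 40th percentile, 20.5. The genotypes were contrasted by limma 3.58.1 (R 4.3.3) (lmFit, then eBayes with its prior following intensity), two-sided and without covariates, and p-values were adjusted by Benjamini-Hochberg. Having 3 arrays per group limits the precision. The script was tested on simulated arrays, where it recovered 32.8% of the changes of 0.5 on the log2 scale and 86.6% of those of 1. Those arrays gave 150 calls, fewer than these data, so the share recovered can differ here. Members that did not pass are not shown to be unchanged. By the rule for named genes, array values were given for called members and, in a role group without a call, for the member of lowest p. Array values of other members, and Tnp1, Tnp2, Prm1 and Prm2, were added after their values were seen. All called pathway genes were named. Alternatives changed the normalization, pseudocount, dim filter, eBayes prior, array weights, replicate block, choice of probe set, and left out each array.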

Additional observations from a re-analysis of the deposited data

How the results depend on the processing

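No called member changed sign under the alternatives run: over all members and alternatives, 605 values kept their side of the threshold, 39 lost a call and 32 gained one. Of the members, 2 fell and 4 rose in the main limma test, against 1414 and 610 of all probe sets. Median centring left 1 lower and 1 higher (1382 and 247 of all probe sets), and testing dim probe sets too left 1 and 1 (817 and 188). An eBayes prior without trend left 0 and 0 (569 and 174), with 2 lower and 11 higher at an unadjusted p under 0.05. Array weights gave 16 members higher (3446 lower and 3771 higher of all), and the mean of a gene's probe sets gave 8 higher. Leaving out 1 array gave 0 to 2 members lower and 0 to 3 higher (147 to 1159 and 17 to 388 of all probe sets). Without WT replicate 1 neither direction had a call, with 3 lower and 13 higher at an unadjusted p under 0.05. Lower calls were 69.9% of all calls, and 84.8% after centring. Their share was 47.7% with array weights, 51.7% with the replicate number as a block and 89.6% without WT replicate 1. Members near the limit of 20.5, Txndc2 above all, have the least signal over background.

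Replicate numbers were not taken as pairs, since the labels do not say what a number marks. Deviations of same-numbered KO and WT arrays correlated at 0.079, 0.46 and 0.27. Each KO array correlated best with the WT array of its number, while WT replicate 1 correlated best with KO replicate 3 (0.11). Whether the numbers mark pairs or a batch cannot be told from these values. With the number as a block 2 members were lower and 14 higher (2330 and 2173 of all probe sets).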
